A study of Mus musculus with 2 samples.

Results

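The genes described here encode the receptors and proximal kinases of Toll-like receptor signalling: the receptors Tlr2 and Tlr4, the adaptor Myd88, the kinases Irak1, Irak2 and Irak4, the ubiquitin ligase Traf6, and the kinase TAK1 (gene Map3k7) with its binding partners Tab1 and Tab2. They were chosen by name, and each was represented by the probes that list one of its RefSeq transcripts. All 10 genes were found among the 20656 genes named on the array, with 16 probes and 32 usable spots. Expression was measured on 2 one-colour arrays of articular chondrocytes, the cells that make and maintain cartilage matrix, cultured from 6-day-old mice of the strain C57BL/6J. The cells lay on fibronectin in silicon stretch chambers for 48 h. One array received RNA taken before loading. The other received RNA of cells stretched cyclically for 30 min (10% elongation, 0.5 Hz) and harvested 24 h later. Each time point has 1 array and therefore no replicate error, so the differences were not tested and carry no p-value, and the labels do not say how many mice or chambers each RNA came from. Unloaded cells kept to 24 h were not analysed here, so loading and a further day of culture cannot be told apart in any difference below.

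Toll-like receptors recognise microbial products and also fragments of damaged extracellular matrix. The activated receptor recruits Myd88, which gathers Irak4, Irak1 and Irak2 into a complex, and these engage Traf6, whose ubiquitin chains activate TAK1 through its Tab partners, after which the IκB kinases and the mitogen-activated protein kinases are switched on. Chondrocytes carry this machinery, share it with interleukin-1 receptors, and use it to make matrix-degrading enzymes, and the question addressed by the comparison is which genes differ in chondrocytes after mechanical loading.

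The brightest probe of each of the 10 genes was well above background before and after loading, which is called detected here, and 0 of the 10 differed by more than 2-fold. Over all 14227 detected genes, 0.668% passed 2-fold upwards and 1.83% downwards at 24 h. The highest log2 ratio among the 10 was that of Irak1 (0.66), and the lowest that of Map3k7 (-0.21). A total of 7 genes had a log2 ratio above 0, as did 47.6% of all detected genes, and 3 below it. With scaling to the array medians 9 were above 0 (beside 63.1% of all detected genes), and with each spot set against its neighbours 6 (beside 48.2%). The median log2 ratio over the 10 genes was 0.06, beside -0.01 over all detected genes, and with median scaling these were 0.16 and 0.08. Beyond 2 within-array errors of 0, which is the error the scanner software assigns to the spots, 2 of the 10 genes were higher (Irak1 and Tlr2), where 7.64% of all detected genes were, and 0 were lower, where 9.4% of all were. In RNA of a whole culture, a change in the number of cells of a type and a change in RNA per cell cannot be told apart.

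**Figure D1:**
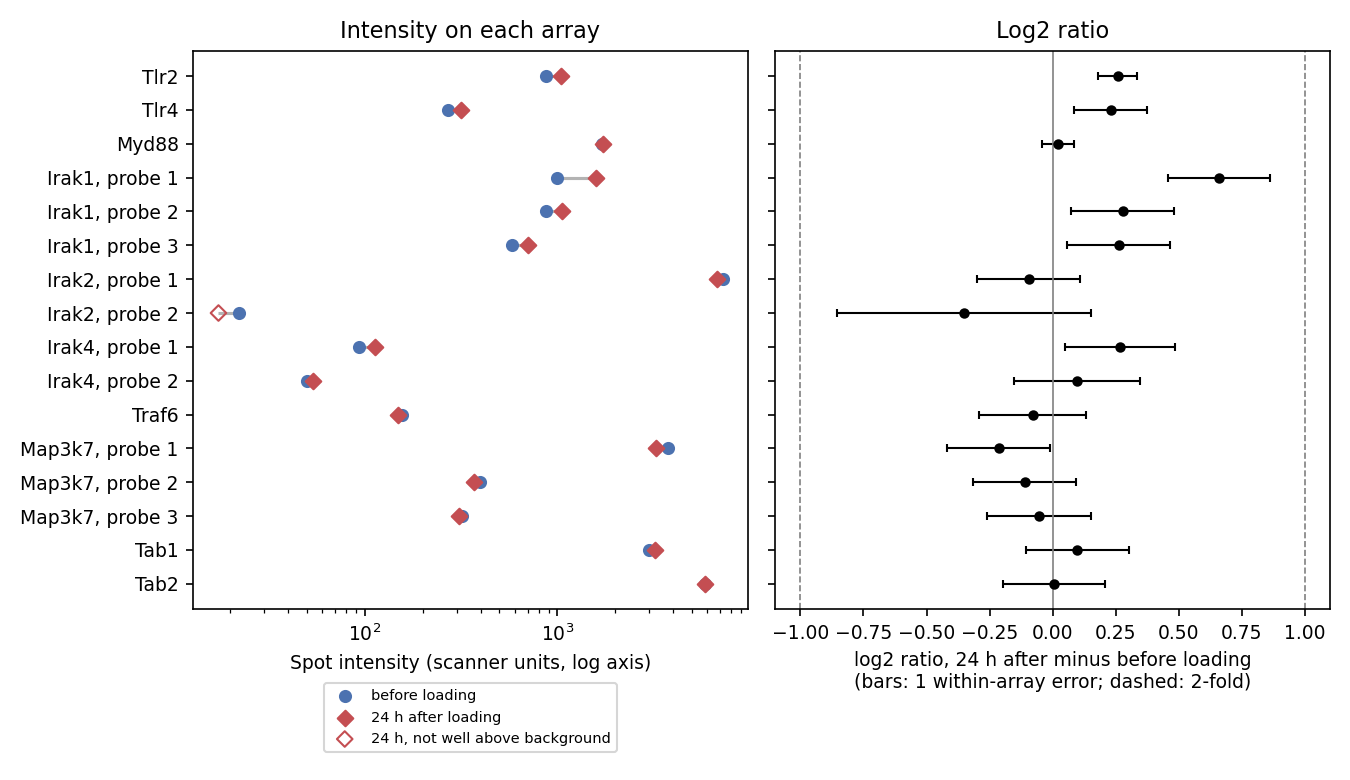
Left, spot intensity (scanner units, log axis) of each of the 16 probes before loading (circles) and 24 h after (diamonds, open where not well above background); right, log2 ratio of 24 h over before loading with 1 within-array error (bars) and 2-fold marked by dashed lines. The 15 probes well above background on both arrays lie within 2-fold, and among them the first probe of Irak1 is the farthest from 0 at 0.66.

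Tlr2 encodes a cell surface receptor that binds bacterial lipoproteins together with Tlr1 or Tlr6. Its probe was printed in 10 spots, of which 7 were used and the others carried an outlier flag. Before loading the 7 spots had intensities between 819.8 and 901, with a median of 892, and at 24 h between 963 and 1093, with a median of 1062. The lowest spot at 24 h was thus brighter than the highest before loading. The log2 ratio of Tlr2 was 0.26 with a within-array error of 0.08, and single spots lay between 0.16 and 0.40 with an SD of 0.08. With the flagged spots kept, the ratio was 0.21. Around single Tlr2 spots, up to 3 of 26 to 29 neighbouring spots within 100 µm were more than 2-fold higher and up to 3 lower. With each spot set against its neighbours the ratio of Tlr2 was 0.26. Agreement among spots of 1 array describes the hybridisation and not the spread between cultures.

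Tlr4 encodes the receptor for bacterial lipopolysaccharide. Its 2 spots read 254 and 284 before loading and 306 and 324 at 24 h, so the spots of the 2 arrays did not overlap. The log2 ratio was 0.23 with an error of 0.15, which is within 2 errors of 0, although the ratio passed 2 errors when arrays were scaled by their medians (0.33). The ratios correspond to 1.20-fold for Tlr2, which passed 2 errors, and 1.17-fold for Tlr4, which did not.

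Myd88 encodes the adaptor that most Toll-like receptors and the interleukin-1 receptor share. Its 10 spots had intensities between 1576 and 1863 before loading and between 1574 and 1879 at 24 h, with medians of 1724 and 1728. The spots of the 2 arrays overlapped over nearly their whole range. The log2 ratio was 0.02 with an error of 0.06, and 5 of the 10 spots were above 0 and 5 below. Among the 260 probes of named genes that had at least 8 spots and were well above background on both arrays, the SD of the ratio between spots had a median of 0.09, and that of Myd88 was 0.07.

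Irak1 encodes a kinase that is phosphorylated in the Myd88 complex and passes the signal to Traf6. The brightest of its 3 probes read 1001 before loading and 1582 at 24 h, a log2 ratio of 0.66 (error 0.20) or 1.58-fold, and 2.51% of all detected genes had a higher ratio. The second probe, which lists another Irak1 transcript, read 872 and 1057, a log2 ratio of 0.28. The third probe lists the same transcript as the first and read 584 and 701, a log2 ratio of 0.26. All 3 probes thus had ratios above 0, but the first differed from the others by more than 1 error, and only the first lay beyond 2 errors (errors of the other 2, both 0.20). The mean over the probes was 0.40, beyond 2 errors of that mean (error 0.12) but not beyond 2 errors of a single probe. Around the spot of the first probe, none of 29 neighbouring spots within 100 µm differed by 2-fold in either direction.

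Irak2 encodes a relative of Irak1 that sustains the response at later times. Its brighter probe read 7196 before loading and 6735 at 24 h, a log2 ratio of -0.09 with an error of 0.20, and this ratio became 0.00 with median scaling. The other probe lists the same transcript and read 22.2 and 17.4, not well above background at 24 h. Its bound was 1.25-fold lower, but its log2 ratio of -0.35 had an error of 0.50 and so lay within 1 error of 0. Probes of 1 transcript can differ in brightness for reasons of their own sequence, and which of the probes follows the transcript better was not tested.

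Irak4 encodes the kinase that binds Myd88 first and activates Irak1. Its brighter probe read 93.9 before loading and 113 at 24 h, a log2 ratio of 0.27 with an error of 0.22. The other probe read 50.3 and 53.7, a log2 ratio of 0.10 with an error of 0.25. The ratio of Irak4 on its brighter probe was as high as that of Tlr2, but it came from 1 spot and so lay within 2 errors of 0. Among the genes of the IRAK kinases, Irak1 and Irak4 were thus above 0 on every probe, and Irak2 lay within its error on the brighter one.

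Traf6 encodes the ubiquitin ligase that builds chains linked through lysine residues and has a single probe here. It read 157 before loading and 148 at 24 h, a log2 ratio of -0.08 with an error of 0.21. The ratio lay within 1 error of 0. Its sign turned with normexp correction and with median and spike-in scaling (both 0.02), which shift every gene by the same amount.

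Map3k7 encodes TAK1, the kinase on which the Toll-like, interleukin-1 and tumour necrosis factor receptors converge. The brightest of its 3 probes read 3763 before loading and 3243 at 24 h, a log2 ratio of -0.21 with an error of 0.20. The second probe, which lists another transcript of the gene, read 398 and 368, a log2 ratio of -0.11. The third probe read 319 and 307, a log2 ratio of -0.05. All 3 probes had ratios below 0, and the first lay just beyond 1 error of 0, the others within 1. Under the other settings, the mean over the probes included, the ratio lay between -0.25 and -0.12.

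Tab1 encodes the partner that promotes autophosphorylation of TAK1, and Tab2 the partner that binds ubiquitin chains and links TAK1 to Traf6. The probe of Tab1 read 2987 before loading and 3197 at 24 h, a log2 ratio of 0.10 with an error of 0.20. The probe of Tab2 read 5801 and 5822, a log2 ratio of 0.01 with an error of 0.20, and became -0.03 when each spot was set against its neighbours. Among the genes of the TAK1 complex, the largest difference on a brightest probe was thus the 1.16-fold of Map3k7. With median and with spike-in scaling, Tab1 (0.20) differed more than Map3k7 (-0.12). In all, 5 of the 10 genes lay within 1 error of 0, and these were Myd88, Irak2, Traf6, Tab1 and Tab2.

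Promoter windows of RefSeq (build GRCm38.p6, 250 bases before to 50 bases after an annotated start of the gene) were held for 8 of the 10 genes, as 10 windows, and are described because NF-κB, which this pathway activates, acts on gene promoters. The NF-κB consensus motif was searched on both strands. It was present in 4.51% of all 32851 windows of this length, and in the windows of 2 of the 8 genes, Tlr2 and Map3k7, which are shown with the matching bases in capitals. In Tlr2 the motif matched 3 times, beginning 173, 172 and 8 bases before the start on which the window is built, and the first 2 matches overlap. In Map3k7 it matched once, beginning 92 bases before that start. Both starts lie inside the outer span of the gene in the RefSeq gene table, by 216 bases in Tlr2 and 615 in Map3k7, so all 4 matches begin within that span. Tlr2 and Map3k7 had log2 ratios of opposite sign, and a match is a description of letters only. The CG dinucleotide, whose density marks one class of mammalian promoter, occurred 11 times in the window of Tlr2 and 36 times in that of Map3k7. Over all windows the median was 7, with 25th and 75th percentiles of 3 and 20. The windows of the other genes held between 2 and 44. The Tlr2 window lies on the minus strand at chr3:83841559-83841858 and the Map3k7 window on the plus strand at chr4:31963857-31964156.
Tlr2: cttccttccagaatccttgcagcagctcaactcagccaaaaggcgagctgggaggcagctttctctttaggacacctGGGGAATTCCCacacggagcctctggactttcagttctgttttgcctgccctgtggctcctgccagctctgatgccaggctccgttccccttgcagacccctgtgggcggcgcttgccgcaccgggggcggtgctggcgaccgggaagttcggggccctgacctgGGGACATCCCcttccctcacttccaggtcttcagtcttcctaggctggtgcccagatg
Map3k7: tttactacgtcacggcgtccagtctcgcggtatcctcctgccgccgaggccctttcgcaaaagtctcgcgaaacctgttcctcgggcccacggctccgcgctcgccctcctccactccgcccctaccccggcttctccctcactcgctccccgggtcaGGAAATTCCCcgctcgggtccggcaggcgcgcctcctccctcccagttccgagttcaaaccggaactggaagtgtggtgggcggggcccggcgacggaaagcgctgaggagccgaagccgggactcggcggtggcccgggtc

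The other genes of the pathway were described by 10 lists. Of their 94 genes besides the 10 above, 74 were detected on both arrays, 12 were higher beyond 2 errors (16.2%, beside 7.64% of all detected genes) and 8 lower (10.8%, beside 9.4%). With normexp correction 5 were higher. Past 2-fold there was 1 gene higher, Map3k8, and 0 lower. Over the 74 genes the median log2 ratio was 0.02.

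Of the 10 other Toll-like receptor genes, 5 were detected on both arrays, and none of these lay beyond 2 errors. The brightest, Tlr9, a receptor for unmethylated DNA, read 5685 before loading and 6517 at 24 h, a log2 ratio of 0.20. The highest ratio was that of Tlr13 (0.26), a receptor for bacterial ribosomal RNA, and the lowest that of Tlr7 (-0.11), a receptor for single-stranded RNA, whose second probe was not well above background. Tlr3, Tlr8 and Tlr11 were on neither array well above background. Tlr1 and Tlr12 were well above background before loading only, with bounds of 1.38-fold and 1.68-fold lower. Their log2 ratios were -0.56 (error 0.46, within 2 errors) and -1.53 (error 0.68).

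Of 9 genes of receptor partners and chaperones, 7 were detected, with a median log2 ratio of 0.26. Those beyond 2 errors were Cd36, a scavenger receptor that works with Tlr2, and Unc93b1, which carries receptors to endosomes. Cd36 read 47.3 before loading and 80.1 at 24 h, a log2 ratio of 0.76 (error 0.25) that came to 0.40 with normexp correction. Unc93b1 read 616 and 1039, a log2 ratio of 0.75 (error 0.20), and kept 0.72 with normexp correction. With that correction, judged by the same errors, Cd36, which was dim, was within 2 errors and Unc93b1 was not. Cd180 and Ly86 were on neither array well above background. The partners of Tlr4 in binding lipopolysaccharide, Cd14 (0.21, error 0.22) and Ly96 (0.26, error 0.20), were within 2 errors and close to Tlr4 itself. The lowest and brightest gene was Hsp90b1, the chaperone that folds Toll-like receptors, with a log2 ratio of -0.21 from 44387 to 38263.

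The interleukin-1 receptor family signals through the same Myd88 complex, and 3 of its 5 genes were detected, all below 0. Il18r1, the receptor for interleukin-18, was well above background at 24 h alone, with a bound of 1.56-fold higher. Its log2 ratio of 0.75 (error 0.52) was within 2 errors. Il18rap was on neither array well above background. The brightest, Il1r1, the receptor for interleukin-1, read 1004 before loading and 948 at 24 h, a log2 ratio of -0.08 that turned to 0.02 with median scaling. Il1rl1, the receptor for interleukin-33, read 439 and 245 on its brightest probe, a log2 ratio of -0.84 (error 0.21). A second Il1rl1 probe, which lists another transcript, read 196 and 69.6, a log2 ratio of -1.50 (error 0.22), and the third was not well above background. Il1rl1 was thus lower on both probes above background, past 2-fold on the dimmer of them. It is not counted as past 2-fold here because the brightest probe stands for the gene. With the mean over probes its ratio was -1.17, past 2-fold.

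Among the other adaptors with a Toll/interleukin receptor domain, Tirap, which brings Myd88 to Tlr2 and Tlr4, read 311 before loading and 419 at 24 h, a log2 ratio of 0.43 (error 0.21). It was within 2 errors with normexp correction (0.40) and with each spot set against its neighbours (0.37). Ticam1, the adaptor of Tlr3 and Tlr4 known as TRIF, read 476 and 541, a log2 ratio of 0.18 (error 0.20). Ticam2 and Sarm1 were on neither array well above background. Of 9 other IRAK, ubiquitin and TAK1 components, all were detected, and only Peli2, a ubiquitin ligase that acts on Irak1, lay beyond 2 errors, with 121 and 196 and a log2 ratio of 0.70 (error 0.21). Up to 5 of the spots near that of Peli2 were more than 2-fold higher and as many lower. The brightest was Ube2v1, a cofactor of the enzyme that builds Traf6 ubiquitin chains, with a log2 ratio of 0.00. The lowest was Ube2n, that enzyme itself, with -0.12 on the brighter probe and 0.55 on the other, so its probes disagreed.

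All 11 genes of the kinases below TAK1 were detected. Chuk, encoding IκB kinase alpha, was the brightest, with 5684 before loading and 5494 at 24 h and a log2 ratio of -0.05 that turned to 0.05 with median scaling. Ikbkg, the regulatory subunit of the IκB kinases known as NEMO, was the lowest, at -0.48 (404 and 289) and -0.49 (240.3 and 171) on its 2 probes, each with an error of 0.21. It was within 2 errors with median scaling (-0.38), spike-in scaling and normexp correction (-0.37). Map3k8, a kinase that feeds the ERK branch, was dim and read 22.4 and 47.9, a log2 ratio of 1.096 (error 0.36) that came to 0.30 with normexp correction. With that correction, judged by the same error, Map3k8 was neither past 2-fold nor beyond 2 errors.

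Of the 6 genes of the TRIF and interferon branch, all were detected, and Irf7, an interferon regulatory factor, was the only one beyond 2 errors. It was dim and read 43.7 before loading and 68.6 at 24 h, a log2 ratio of 0.65 (error 0.25) that came to 0.20, within 1 error, with normexp correction. The brightest was Irf3 (log2 ratio 0.14) and the lowest Irf5 (-0.47, error 0.35), which came to -0.18 with normexp correction.

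The 11 inhibitors of the pathway were all detected, with a median log2 ratio of -0.01. Sigirr, a receptor that dampens interleukin-1 and Toll signalling, was higher (338 and 461, log2 ratio 0.45, error 0.21), but within 2 errors with normexp correction (0.38) and with each spot set against its neighbours. Dusp1, a phosphatase of mitogen-activated protein kinases, was lower (1312 and 919.7, log2 ratio -0.51, error 0.20). Tnip1, which binds ubiquitin together with Tnfaip3, was the brightest, at -0.23 and -0.12 on its probes. Genes of both signs were therefore found among the inhibitors.

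Of 10 genes of matrix and alarmin proteins described as Toll receptor ligands, 8 were detected, 1 lay beyond 2 errors on either side, and S100a9 was on neither array well above background. Fmod, which encodes the collagen-binding proteoglycan fibromodulin, read 26910 before loading and 38232 at 24 h, a log2 ratio of 0.51 (error 0.20). Tnc, which encodes tenascin C, a matrix glycoprotein that can activate Tlr4, read 163 and 89.2, a log2 ratio of -0.87 (error 0.22), and -0.57 (error 0.34) on a dimmer probe. The ratio of Tnc came to -0.50 with normexp correction and to -1.16, past 2-fold, with each spot set against its neighbours. Of 15 spots within 100 µm of it, 3 were more than 2-fold higher. The brightest was Fn1, encoding fibronectin, with a log2 ratio of -0.15 that turned to 0.03 with loess normalization.

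Among 20 inflammatory target genes, 13 were detected, and the median log2 ratio was -0.17. This median was -0.08 with median scaling, -0.09 with normexp correction and -0.26 with each spot set against its neighbours. Beyond 2 errors 4 were higher (beside 7.64% of all detected genes) and 4 lower (beside 9.4%). With normexp correction these were 2 and 3, for which no share of all detected genes is given. The genes of the cytokines Il6, Il1b, Tnf, Cxcl2, Ccl20, Csf2 and Csf3 were on neither array well above background. Cxcl5, a neutrophil chemokine, had the highest ratio (88.7 before loading and 162 at 24 h, 0.86, error 0.22), and Saa3, an acute phase protein, the lowest (395 and 213, -0.89, error 0.21). Ptgs2, the inducible cyclooxygenase, was lower over its 10 spots, with means of 146 and 80.1 and a log2 ratio of -0.87 (error 0.07) that came to -0.51 with normexp correction. Ccl2, a monocyte chemokine, was also lower over 10 spots (193 and 148, -0.38, error 0.07). The others beyond 2 errors were Icam1 (0.52), Vcam1 (0.44) and Mmp13 (0.49) on the higher side. On the lower side it was Nos2 (-0.31, error 0.14, over 2 spots). The brightest gene, Lcn2, had 0.11. Icam1 (0.30) and Vcam1 (0.31) were within 2 errors with normexp correction, as was Nos2 (-0.22), which also came within 2 errors with median scaling. The detected targets thus lay on both sides of 0 and all within 2-fold.

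**Figure D2:**
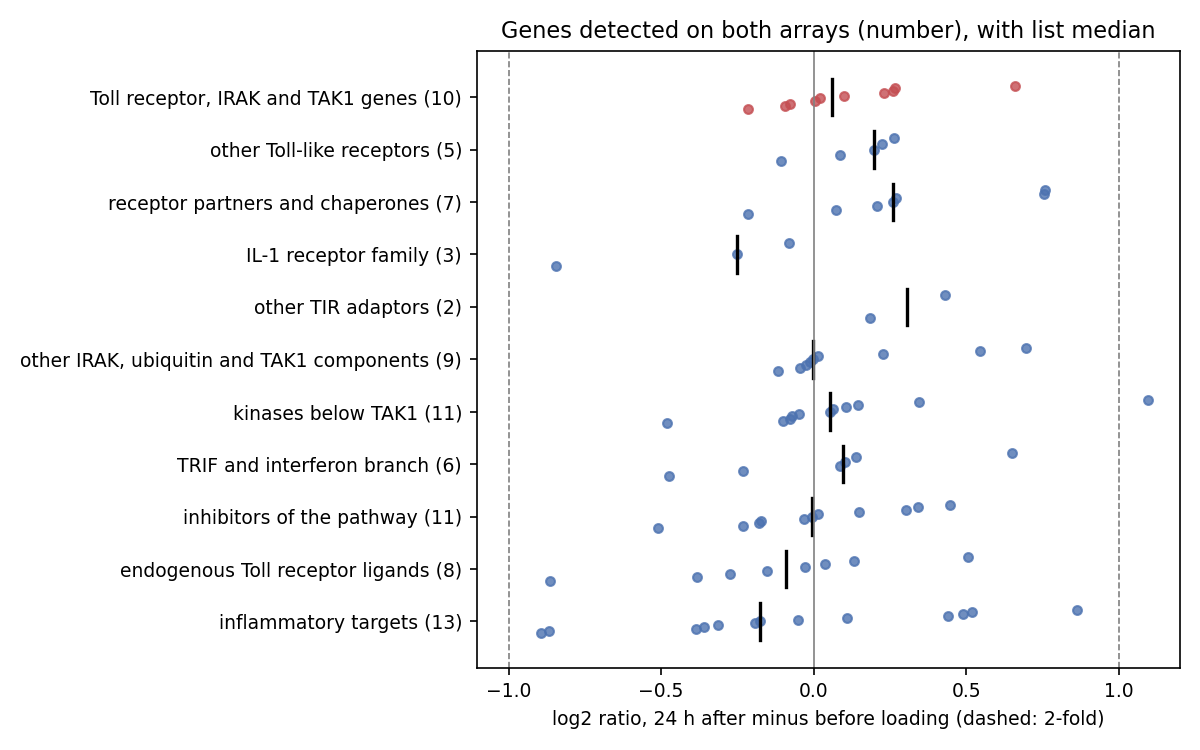
Log2 ratio of 24 h over before loading (horizontal axis, 2-fold dashed) of each gene detected on both arrays, 1 point per gene, with the number of genes in brackets and the median of each list as a black line. The Toll receptor, IRAK and TAK1 genes (red) have a median of 0.06, and Map3k8 among the kinases below TAK1 is the only point past 2-fold.

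Toll receptor genes are also expressed by macrophages, so markers of the cells a cartilage digest could hold were read beside them. All 14 chondrocyte markers were detected. Col2a1, the main cartilage collagen, read 499543 before loading and 474876 at 24 h, a log2 ratio of -0.07. Its sign turned under 4 of the alternatives, to 0.12 with loess normalization. The highest ratio among the 14 markers was that of Matn1, a cartilage matrix protein (0.56). The lowest was that of Col11a1, a minor cartilage collagen (-0.82), and both were beyond 2 errors. Sox9, the master transcription factor of chondrocytes, was also beyond 2 errors (0.22, error 0.07, over 9 spots). The list median was 0.10, and 0.25 with quantile and 0.22 with loess normalization. Higher beyond 2 errors were 2 of the markers (beside 7.64% of all detected genes). With quantile and with loess normalization 5 were, and 4 with median and with spike-in scaling, for which no such share is given. Of 13 macrophage markers named on the array, 10 were detected and Cx3cr1 and Aif1 were on neither array well above background. Fcgr1 was well above background at 24 h alone (20.8 before loading and 28.8 at 24 h). The summed intensity of the 13 was 30161 before loading and 29243 at 24 h. Most of it came from 1 probe of Itgam (25496 and 24759), whose other 2 probes read 70.4 and 54.9, and 49.0 and 44.2. Of the 10 detected, 4 were above 0 and 6 below, where 47.6% of all detected genes were above 0. With median scaling Itgam (0.06), C1qb (0.002) and Mrc1 (0.08) turned above 0, where 63.1% of all detected genes were. Adgre1, a defining macrophage marker, read 55.6 and 59.0 on its brighter probe (log2 ratio 0.09). On the other it read 43.9 and 41.4 (-0.08). Csf1r had -0.15 on its brightest probe, but 0.20 and 0.27 on the others, and 0.11 with the mean over probes. Tyrobp had 0.21 (error 0.21). The complement genes C1qa (-0.42, error 0.28) and C1qc (-0.31, error 0.08, over 10 spots) were below 0, and Lyz2, the lysozyme of macrophages, above it (0.46, error 0.21). Ptprc, carried by all leukocytes, read 20.9 and 46.1, a log2 ratio of 1.14 (error 0.35) that came to 0.40 with normexp correction. Of 26 spots within 100 µm of the Ptprc spot, 6 were more than 2-fold higher and 1 lower. With normexp correction, whose offset of 50 draws ratios of dim probes towards 0 by construction, 0 of the macrophage markers lay beyond 2 errors. The part of such cells in the values of Tlr2 and Tlr4 was not tested.

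Of the 7 endothelial markers only Pecam1 was detected (112 and 129.96), and of 7 neutrophil markers named on the array only Elane and Camp. Elane, the brighter, read 7011 before loading and 5987 at 24 h, a log2 ratio of -0.23 (error 0.20). Camp was 2.54 higher on the log2 scale on one probe and 0.28 on the other. S100a8 was well above background before loading only, with a bound of 1.27-fold lower and a log2 ratio of -0.49 (error 0.50). All 7 fibroblast-type markers were detected, with Dpt, a small matrix protein gene, at 59.4 before loading and 253 at 24 h, a log2 ratio of 2.10 over 10 spots and of 1.34 with normexp correction. The median of this list was 0.12, the brightest, Col1a2, had 0.01, the lowest, Col1a1, had -0.04, and Postn (0.43, error 0.20) was the only other one beyond 2 errors, but not with each spot set against its neighbours (0.36). Of 7 skeletal muscle markers 5 were detected, with Myh8 (1.15) and Tnnc2 (1.03) past 2-fold, Myh3 also higher beyond 2 errors (0.64) and Tnnt3 lower (-0.78). A second, dimmer Tnnt3 probe, which lists another transcript, had -1.004, or 2.01-fold lower, and the brightest gene, Acta1, had -0.31 (error 0.20). Myh8 and Tnnc2 came inside 2-fold with normexp correction (0.63 and 0.89). None of these lists was tested for a part in the values of the Toll receptor, IRAK and TAK1 genes.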

How the data were processed

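Primary mouse chondrocytes gave RNA before loading and 24 h after it, which was labelled with Cy3 and hybridised to 2 one-colour Agilent arrays. The authors deposited spot intensity values from Agilent Feature Extraction 10.10.1.1, as its processed signal after background subtraction, with the software's error and flags. The authors' own value table holds the same intensity rounded, within 0.497% of the scanner values. The members and lists were chosen with earlier results of these data known.

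Control spots and spots with an outlier flag on either array (141 before loading, 138 at 24 h) were left out, and spots of a probe were averaged, giving 55678 probes. Log2 intensities were set against the 75th percentile of each array, which was an intensity of 466.4 (before) and 466.2 (after). Well above background were 59.1% and 57.7% of spots, and 0 were saturated. Probes were named through unversioned accessions in a RefSeq table (GRCm38.p6, names only), and 27229 matched 1 gene, giving 20656 genes. The brightest probe represented a gene, and a gene was detected if that probe was well above background on both arrays. A bound sets the brighter array against the lowest signal well above background on the other. It leaves the within-array error out. That lowest signal was 17.3 before loading, where Fcgr1 at 20.8 was not well above background, so the true difference can be smaller than a bound. Errors combine the software's errors of both arrays, divided over spots of a probe, and cover within-array error only. The median error was 0.20.

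Named were all 10 members and, in each of the 10 pathway lists, the brightest gene, the highest and lowest log2 ratio, genes past 2-fold and some genes not above background. Genes named for lying beyond 2 errors, and other named genes, were chosen after their values were seen. The 6 marker lists were macrophage, chondrocyte, endothelial, fibroblast-type, neutrophil and skeletal muscle. A total of 10 alternatives were set at the outset and 2 were added after the data were seen. Python 3.11.15 with pandas 2.3.3, numpy 2.4.6 and scipy 1.17.1, and limma 3.58.1 in R 4.3.3 for normexp (offset 50), quantile and loess were used. The files hold no mean spot signal, so normexp used the median, and what is called normexp correction thus differs in signal, background and offset together. Its calls kept the errors of the uncorrected signal, so dim probes came within 2 errors more readily by construction. Only the 2-fold call was tested on simulated data, with planted changes larger than that fold. The call beyond 2 errors was not tested in this way. A simpler form of the NF-κB motif was searched first and replaced by the consensus after its matches were seen.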

Additional observations from a re-analysis of the deposited data

How the results depend on the processing

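No paired analysis was possible because each time point has 1 array, and no array could be left out for the same reason. No member passed 2-fold under any of the alternatives. The median over members, 0.06, was 0.16 if arrays were scaled by their medians or by the spike-ins. Scaling by the array medians left 1 member lower, as did scaling to the spike-in controls, an alternative chosen after seeing the data. Median scaling moved the median of all detected genes from -0.01 to 0.08. With normexp correction, 5 of the other pathway genes were higher beyond 2 errors, by errors that were not recomputed. Under it 38 detected genes were more than 2-fold higher and 118 lower, against 95 and 260. These counts were 192 and 507 for genes detected on at least 1 array, and 492 and 983 without a filter on dim probes, where noise near background enters by construction. Genes higher made up 26.8% of those past 2-fold, but 38.8% with median scaling (130 higher and 205 lower). The causes of these moves were not tested. Among the members, single ratios that moved by more than 1 error were those of Tlr2 (0.36) and Myd88 (0.12) with the median and the spike-in scaling alike, and of Irak1 (0.40) with the mean over probes. The second Irak2 probe was not well above background at 24 h, and its bound leaves the within-array error out.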

Other observations

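Genes of 2 further lists, written after the data were seen, were read in the same way. Of 16 genes of other pattern recognition receptors and their adaptors named on the array, 12 were detected on both arrays, 9 were above 0 and 3 below, and the median log2 ratio was 0.23. Nod1, a cytosolic receptor for bacterial peptidoglycan whose signal also reaches TAK1, read 904 before loading and 1333 at 24 h, and its log2 ratio was 0.56 with an error of 0.20. Pycard, the adaptor of inflammasomes, read 885 and 1297, a log2 ratio of 0.55 with an error of 0.20. These were the only 2 of the 12 beyond 2 errors, on the higher side, where 7.64% of all detected genes were. If arrays were scaled by their medians or by the spike-ins, 4 were, and 3 with the 75th percentile of probes above background, with each spot set against its neighbours and with the mean over probes. Casp1, the protease that inflammasomes activate, was dim and had the lowest ratio (-0.27, error 0.30), and Nod2, Aim2, Card9 and Ager were on neither array well above background. Ddx58, the RNA sensor RIG-I, had log2 ratios of 0.34 on its brighter and 0.87 on its dimmer probe.

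Of 11 genes of the tumour necrosis factor receptor arm, which meets Toll signalling at TAK1, all were detected and none lay beyond 2 errors, but 1 did under 6 of the alternatives. The brightest, Tnfrsf1a, the main receptor, had means of 9492 and 10338 over 10 spots, a log2 ratio of 0.12 with an error of 0.06. The ratios ran from -0.18 for Tnfrsf1b to 0.25 for Traf1, with a median of 0.10. With normexp correction Tnfrsf1b came to -0.05, Traf1 to 0.08 and the median to 0.03, and with median scaling the median was 0.20.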
